A study of Homo sapiens with 6 samples.

Results

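The genes described here are FOS, FOSB, FOSL1, FOSL2, JUN, JUNB, JUND, ATF3, MAFF and BATF3, which encode subunits of the transcription factor AP-1 and basic leucine zipper proteins related to them. They were taken by symbol from the gene count table, in which they are 10 of 23346 genes. RNA-seq was performed on BT549, a human breast cancer cell line labelled mesenchymal and wild type, after transfection with 20 nM of negative control (NC) siRNA or with 20 nM of BNC2 siRNA, an equal mix of 3 siRNAs. Medium was replaced 6 hours after transfection in both groups, and RNA was prepared after 6 d. Each group had 3 biological replicates, so the comparison asks how mRNA levels of these genes stood 6 d after knockdown of BNC2, a zinc finger protein. Each value comes from a population of cells, in which fewer cells expressing a gene and less of its RNA per cell cannot be told apart.

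AP-1 is a dimer of proteins that share a basic leucine zipper (bZIP), a helix that both pairs the subunits and grips DNA. FOS family proteins cannot pair with themselves and bind DNA as partners of JUN family proteins, while JUN proteins also pair with each other. ATF3 and BATF3 pair with JUN proteins and often act as repressors, and MAFF is a small MAF protein that lacks an activation domain. Many of these genes are immediate early genes, which are transcribed within minutes of a growth factor or stress signal, and FOSL1 is known for its high level in mesenchymal breast cancer cells. AP-1 binds the TPA response element, and dimers that contain ATF proteins favour the cyclic AMP response element.

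The 250 bases before each start site were read from a RefSeq table on GRCh38.p14, in which 8 of the 10 genes matched with 10 start sites. FOSL1 and BATF3 had no entry. Both strands were searched for TGANTCA, the TPA response element with any base at N, for TGACGTCA, the cyclic AMP response element, and for TATAAA, the TATA box. TGANTCA was in none of these 10 windows and in 6.57% of the 35116 windows of the whole table. TGACGTCA was in the windows of JUND and of the first start of MAFF, and in 1.65% of the whole table. TATAAA was in the windows of FOS, FOSB, JUNB and the second start of ATF3, and in 10.7% of the whole table. The ATF3 match begins at -230 from the start site, against -33 in FOS, -30 in FOSB and -31 in JUNB. A match describes the letters of a window and is not evidence of binding.

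The sequences of 4 windows are shown because they pair genes by a shared motif. JUND and MAFF, which were both lower with BNC2 siRNA, hold TGACGTCA. FOS, which was higher, and JUNB, which was lower, hold TATAAA at nearly the same distance from the start. FOSB, which was lower too, holds it at -30 and is not printed. Each is written 5′ to 3′ on the strand of its gene, with the motif in capitals. The windows lie at chr19:18281623-18281872 on the minus strand (JUND), chr22:38201744-38201993 on the plus strand (MAFF), chr14:75278578-75278827 on the plus strand (FOS) and chr19:12791236-12791485 on the plus strand (JUNB), all in GRCh38.p14. The motif begins at -200 in JUND, -54 in MAFF, -33 in FOS and -31 in JUNB, counted from the start site.
JUND: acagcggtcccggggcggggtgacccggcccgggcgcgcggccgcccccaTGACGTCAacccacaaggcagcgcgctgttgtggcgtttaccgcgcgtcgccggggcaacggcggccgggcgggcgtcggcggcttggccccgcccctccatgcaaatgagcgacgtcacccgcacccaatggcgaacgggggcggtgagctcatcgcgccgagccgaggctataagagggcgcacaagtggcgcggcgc
MAFF: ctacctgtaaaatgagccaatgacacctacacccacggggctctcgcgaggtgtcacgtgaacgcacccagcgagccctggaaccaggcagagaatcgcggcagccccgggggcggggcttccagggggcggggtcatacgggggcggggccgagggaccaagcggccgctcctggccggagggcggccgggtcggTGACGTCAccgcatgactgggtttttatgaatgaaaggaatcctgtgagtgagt
FOS: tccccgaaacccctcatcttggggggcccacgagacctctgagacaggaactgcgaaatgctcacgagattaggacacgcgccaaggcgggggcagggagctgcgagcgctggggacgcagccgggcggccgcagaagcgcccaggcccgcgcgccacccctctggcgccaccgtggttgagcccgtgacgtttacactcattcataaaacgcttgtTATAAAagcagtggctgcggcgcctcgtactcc
JUNB: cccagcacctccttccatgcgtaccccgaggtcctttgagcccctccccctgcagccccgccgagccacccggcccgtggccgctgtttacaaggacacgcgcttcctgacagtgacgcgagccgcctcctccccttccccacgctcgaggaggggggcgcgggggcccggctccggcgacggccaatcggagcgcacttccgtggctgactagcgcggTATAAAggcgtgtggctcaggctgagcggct

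Libraries held 16093978 to 18246254 counts in genes, and 12186 genes passed a level of 1 CPM (counts scaled to a common library size) in at least 3 of the 6 libraries. CPM values here are scaled by TMM, edgeR's correction for composition. BNC2 itself (chr9:16409501-16870841 on the minus strand, hg19) was at 65.6, 51.5 and 58.6 CPM after NC siRNA, against 35.5, 36.6 and 41.6 CPM after BNC2 siRNA. The groups did not overlap, and the log2 fold change was -0.63 (standard error, SE, 0.09; edgeR adjusted p = 8.2e-06). Libraries of the same group clustered together, and 90.8% of the variance lay along the axis between the groups. All 8 mesenchymal markers checked passed the filter, of which 6 rose (VIM, FN1, CDH2, ZEB1, TWIST1 and SNAI2), ZEB2 fell from 98.8 ± 5.37 to 42.5 ± 3.23 CPM (log2 fold change -1.22, adjusted p = 1.8e-10) and PRRX1 was not called. Among all genes tested, 72.9% were called, 36.6% up and 36.2% down. The mesenchymal markers were not tested as a set. Their summed levels of 4380 to 4467 CPM in NC and 5256 to 5480 CPM in BNC2 siRNA libraries were mostly VIM and FN1 reads. The log2 fold changes of CDH2, TWIST1 and SNAI2 were 1.36, 1.54 and 1.15. Of 8 epithelial markers only KRT18 passed the filter, EPCAM and ESRP1 were at 0 in every library, and their sum was 3.97 to 6.25 CPM in NC and 1.57 to 1.69 CPM in BNC2 siRNA libraries. KRT18 stood at 4.63 ± 0.94 CPM in NC and 0.46 ± 0.18 CPM in BNC2 siRNA libraries and passed the filter through the NC group alone, and ESRP2, below the filter, stood at 0.32 ± 0.18 CPM in NC and 1.05 ± 0.27 CPM in BNC2 siRNA libraries. The monocyte marker CD14, which also passed through the NC group alone, stood at 1.70 ± 0.32 and 0.64 ± 0.11 CPM, and the leukocyte markers PTPRC and CD3E did not pass the filter. Of 3 endothelial markers none passed and CDH5 was at 0, with sums of 0.241 to 0.560 and 0 to 0.407 CPM. The part of these markers in the results below was not tested.

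All 10 genes passed the filter on low counts, and none of them through the libraries of 1 group alone. At an edgeR adjusted p of at most 0.05, 8 of the 10 differed between the groups, where 72.9% of all genes tested did, so the count of genes called is close to the background. Of these, 2 rose (36.6% of all genes tested) and 6 fell (36.2%), and the log2 fold changes of the 10 had a median of -0.47, beside 0.0014 for all genes tested. The groups did not overlap in 7 of the 10, where 74.9% of all genes tested did not. ATF3 fell furthest, MAFF and BATF3 also fell, FOS and FOSL1 rose, and JUN and FOSL2 did not pass the test.

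**Figure D1:**
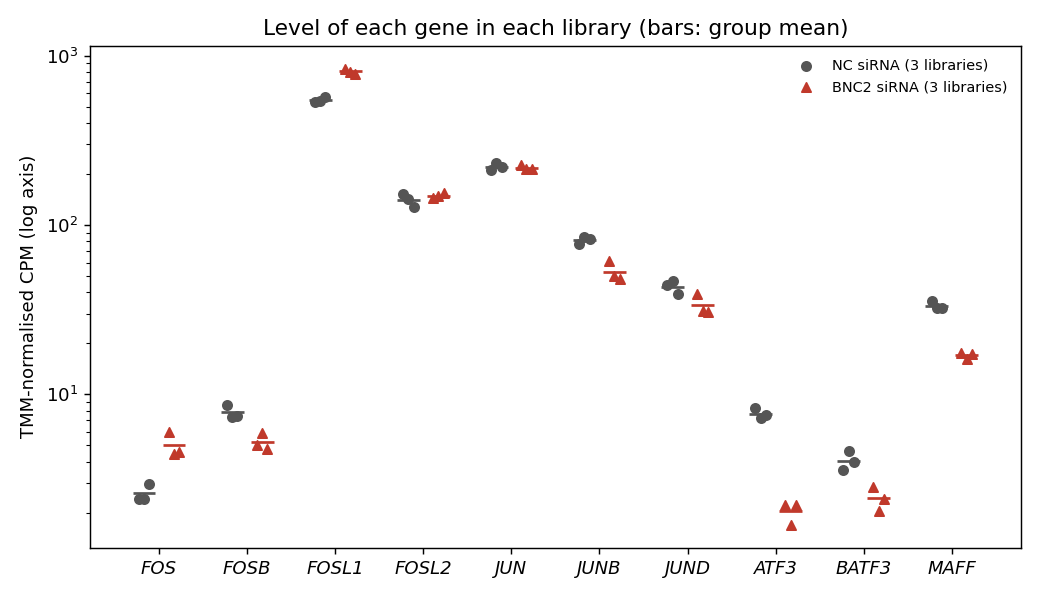
TMM-normalised CPM of the 10 genes on a log axis, with 3 NC siRNA libraries (circles) and 3 BNC2 siRNA libraries (triangles) and a bar at each group mean. ATF3 lies between 7.23 and 8.28 CPM in NC and between 1.69 and 2.23 CPM in BNC2 siRNA libraries, and the points of JUN and FOSL2 overlap between groups.

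FOS, the inducible founder of its family (chr14:75745529-75748933 on the plus strand, hg19), was low in this line. It was at 2.42, 2.41 and 2.95 CPM after NC siRNA, against 5.99, 4.46 and 4.58 CPM after BNC2 siRNA. Every BNC2 siRNA library lay above every NC library, and FOS rose 1.94-fold in edgeR's fit (log2 fold change 0.95, SE 0.19, adjusted p = 0.00021). These levels rest on 43, 43 and 49 counts in NC and 103, 79 and 72 counts in BNC2 siRNA libraries, which gives FOS the wide 95% interval of 0.56 to 1.35 on the log2 scale.

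FOSB (chr19:45971253-45978437 on the plus strand), a paralogue that is also inducible, moved the other way. It was at 8.67, 7.34 and 7.46 CPM after NC siRNA, against 5.00, 5.87 and 4.78 CPM after BNC2 siRNA. The groups did not overlap, and FOSB fell by a log2 fold change of -0.58 (SE 0.14, adjusted p = 0.0015). ERCC1 overlaps FOSB on the opposite strand, and 1.17% of the reads at FOSB came from that strand, which was not counted.

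FOSL1, which encodes FRA1 (chr11:65659520-65668044 on the minus strand), was the most abundant FOS family mRNA. It was at 531, 537 and 574 CPM after NC siRNA, against 838, 806 and 781 CPM after BNC2 siRNA. The groups lay well apart, and FOSL1 rose 1.48-fold (log2 fold change 0.56, SE 0.06, adjusted p = 1.2e-07). Its 95% interval of 0.44 to 0.68 was narrower than that of FOS.

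FOSL2, which encodes FRA2 (chr2:28615315-28640184 on the plus strand), was at 153, 142 and 127 CPM after NC siRNA, against 144, 148 and 154 CPM after BNC2 siRNA. The groups overlapped, and the difference did not pass the test (log2 fold change 0.08, SE 0.07, adjusted p = 0.31). The 95% interval of -0.07 to 0.22 spanned 0. Of the 4 FOS family genes, FOS and FOSL1 thus rose, FOSB fell and FOSL2 was not called.

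JUN (chr1:59242517-59249720 on the minus strand), the founding JUN subunit, was at 212, 232 and 220 CPM after NC siRNA, against 226, 214 and 214 CPM after BNC2 siRNA. The ranges overlapped almost fully (log2 fold change -0.02, SE 0.06, adjusted p = 0.72). The 95% interval of -0.14 to 0.10 was among the narrowest of the 10 genes.

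JUNB (chr19:12902300-12904129 on the plus strand) encodes a weaker activator than JUN that can limit the activity of JUN. It was at 77.1, 85.3 and 82.5 CPM after NC siRNA, against 61.5, 49.9 and 47.8 CPM after BNC2 siRNA. No BNC2 siRNA library reached the NC range, and JUNB fell by a log2 fold change of -0.62 (SE 0.08, adjusted p = 4.8e-06). Within the BNC2 siRNA group, replicate 1 stood above the other two.

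JUND (chr19:18390504-18392432 on the minus strand) encodes the subunit that is usually expressed without a stimulus. It was at 44.1, 46.4 and 39.3 CPM after NC siRNA, against 39.3, 31.3 and 30.6 CPM after BNC2 siRNA. NC replicate 3 and BNC2 siRNA replicate 1 met at the same level, so the groups overlapped there, although the model called a fall (log2 fold change -0.36, SE 0.10, adjusted p = 0.003). JUND was the smallest of the 8 changes called. JUNB and JUND therefore both fell, while JUN was not called.

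ATF3 (chr1:212738676-212794119 on the plus strand), a stress-induced bZIP gene, had the largest change of the 10 genes. It was at 8.28, 7.23 and 7.53 CPM after NC siRNA, against 2.21, 1.69 and 2.23 CPM after BNC2 siRNA. The groups were far apart, and ATF3 was 3.76-fold lower with BNC2 siRNA (log2 fold change -1.91, SE 0.17, adjusted p = 3.1e-08). The counts behind these levels were 147, 129 and 125 in NC and 38, 30 and 35 in BNC2 siRNA libraries. Ordered from the lowest log2 fold change, ATF3 held place 394 among the 12186 genes tested and MAFF place 1287, while from the highest FOS held place 1094 and FOSL1 place 2444.

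BATF3 (chr1:212859759-212873182 on the minus strand), known for its role in dendritic cells, lies 65639 bases from ATF3. It was at 3.55, 4.59 and 3.97 CPM after NC siRNA, against 2.85, 2.03 and 2.42 CPM after BNC2 siRNA. The groups did not overlap, and BATF3 fell by a log2 fold change of -0.73 (SE 0.19, adjusted p = 0.003). With 63, 82 and 66 counts in NC and 49, 36 and 38 in BNC2 siRNA libraries, its 95% interval ran from -1.14 to -0.32.

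MAFF (chr22:38596774-38612514 on the plus strand) encodes a small MAF protein that pairs with NFE2L2 and related factors. It was at 35.4, 32.5 and 32.2 CPM after NC siRNA, against 17.6, 16.2 and 17.3 CPM after BNC2 siRNA. Replicates of a group lay close together and the groups far apart, with MAFF 1.96-fold lower with BNC2 siRNA (log2 fold change -0.97, SE 0.08, adjusted p = 2.3e-08). PLA2G6 overlaps MAFF on the opposite strand, and 4.05% of the reads at MAFF came from that strand, the highest share among the 10 genes. FOSL2, JUNB, ATF3 and BATF3 also overlap genes of the opposite strand, FOSL2-AS1, HOOK2, RN7SL512P and RNU6-423P, at 0.944%, 1.67%, 2.14% and 0% of reads. GENCODE places a long non-coding RNA over FOSL2 on the same strand, whose reads the counts of FOSL2 cannot tell apart.

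**Figure D2:**
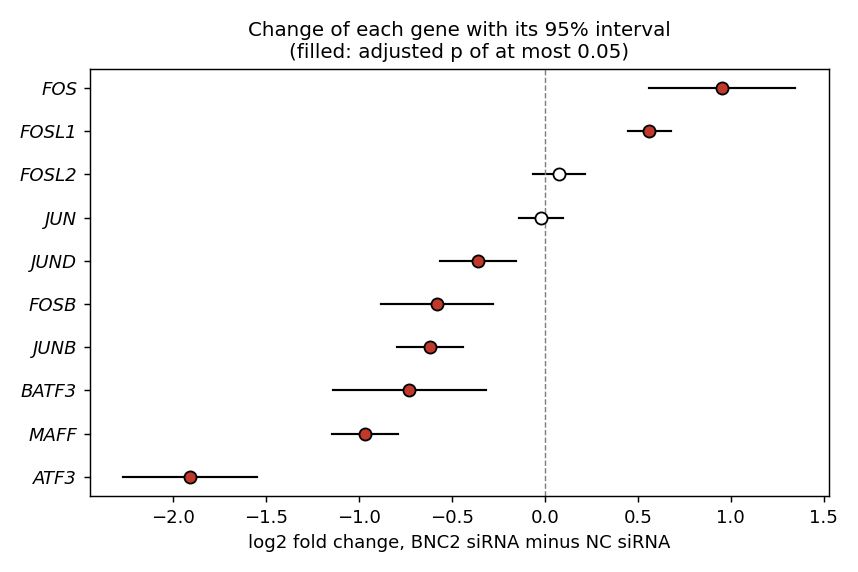
Log2 fold change of each gene (BNC2 siRNA minus NC siRNA, 3 libraries each) with its 95% interval from edgeR's quasi-likelihood fit, where filled points have an adjusted p of at most 0.05. FOS (0.95) and FOSL1 (0.56) lie above 0, FOSL2 and JUN span 0, and ATF3 (-1.91) lies lowest.

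Levels of different genes were compared as CPM per kilobase of exon. In the NC libraries the order was FOSL1 at 290 ± 12.5, JUN at 61.1 ± 2.76, JUNB at 44.6 ± 2.29, JUND at 22.4 ± 1.88, FOSL2 at 19.7 ± 1.83, MAFF at 5.95 ± 0.31, ATF3 at 1.92 ± 0.14, BATF3 at 1.57 ± 0.20, FOSB at 1.41 ± 0.13 and FOS at 0.81 ± 0.10 CPM per kilobase (mean ± SD, n = 3). JUND overlapped FOSL2 and BATF3 overlapped FOSB, and the other neighbours in the order did not overlap. In the BNC2 siRNA libraries the first 3 places were the same, with FOSL1 at 428 ± 15.2, JUN at 60.1 ± 1.89 and JUNB at 29.0 ± 4.02 CPM per kilobase, followed by FOSL2 at 20.8 ± 0.66 and JUND at 17.5 ± 2.52. Below MAFF, at 3.04 ± 0.13, the order of the low genes differed, with FOS at 1.57 ± 0.27, BATF3 at 0.95 ± 0.16, FOSB at 0.94 ± 0.10 and ATF3 last at 0.51 ± 0.08 CPM per kilobase. FOS thus stood last of the 10 in NC libraries and ATF3 last in BNC2 siRNA libraries, and FOSL2 overlapped JUND and BATF3 overlapped FOSB in both groups. With the longest transcript in place of all exons, FOSB stood above BATF3 in both groups.

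Summed per kilobase, the FOS family stood at 312 ± 10.8 in NC and 452 ± 14.8 in BNC2 siRNA libraries, and the JUN family at 128 ± 5.84 and 107 ± 8.42 (CPM per kilobase, mean ± SD, n = 3). FOSL1 made up 92.2% to 93.8% of the FOS family sum after NC siRNA and 94.6% to 95.1% after BNC2 siRNA. FOSL2 held 5.48% to 7.02% and 4.31% to 4.90%, while FOSB and FOS each stayed at or below 0.51% in every library. The FOS family sum is therefore almost all FOSL1 mRNA in both groups. In the JUN family, JUN held 47.4%, 47.5% and 48.1% of the sum after NC siRNA, against 53.6%, 57.6% and 58.5% after BNC2 siRNA. JUNB held 34.1% to 35.7% and 25.9% to 28.9%, and JUND 16.1% to 18.5% and 15.7% to 17.5%. The JUN and JUNB shares did not overlap between groups and the JUND shares did. These shares of mRNA were not tested and say nothing of protein.

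**Figure D3:**
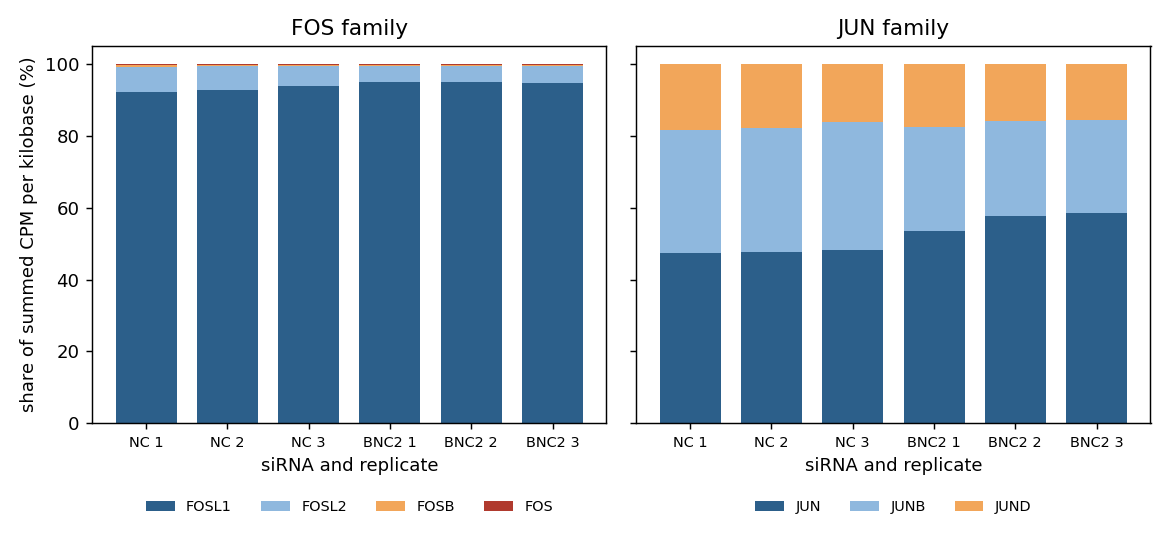
Share of each subunit in the summed CPM per kilobase of its family (%), one stacked bar for each of the 6 libraries. FOSL1 fills at least 92.2% of every FOS family bar, and the JUN share is 47.4% to 48.1% in NC and 53.6% to 58.5% in BNC2 siRNA libraries.

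Within a library, log2 ratios between related members do not depend on library scaling. The pairs, 5 in number, were chosen after the values of the genes had been seen. FOSL1 relative to FOSL2 was higher with BNC2 siRNA by 0.48 and FOS relative to FOSB by 1.53, in log2 units. JUNB relative to JUN was lower by 0.61 (difference -0.61), JUND relative to JUN had a difference of -0.34, and ATF3 relative to its neighbour BATF3 a difference of -1.18. In each of the 5 pairs the groups did not overlap. Among single genes tested 74.9% did not overlap, and no such share was taken over ratios of other genes. Because the pairs were chosen with the values known, this count is a description only. The exact two-sided permutation test gave p = 0.1 for each pair (adjusted p = 0.1 over the 5), the smallest value that 3 libraries against 3 allow, so none could pass 0.05.

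The genes whose log2 CPM correlated most with ATF3 over the 6 libraries were OSBP2 (Pearson r = 0.9998), HEBP1 (r = 0.9993) and ACTN1 (r = 0.9987). Their log2 fold changes were -2.30, -0.63 and -0.39, beside -1.91 for ATF3. For MAFF they were FAM198B (r = 0.9999), PLK2 (r = 0.9996) and TTC9 (r = 0.9994), with log2 fold changes of -1.67, -0.54 and -1.67, beside -0.97 for MAFF. Such correlations describe 2 groups of libraries that stand apart and not the size of a change. In all, 263 genes reached r over 0.99 with ATF3 and 413 with MAFF.

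Other genes of the pathway were counted in lists, to be read beside the 72.9% of all genes tested that were called (36.6% up, 36.2% down) and their median log2 fold change of 0.0014. Of 16 bZIP partners outside the 10 genes, 12 passed the filter and all 12 (100%) were called, 7 up and 5 down, with a median log2 fold change of 0.33. The filter was passed through 1 group alone by 2 of them, which could only differ, and without any 1 of the NC libraries 10 genes passed the filter, of which 7 rose and 3 fell. CEBPB, a bZIP activator of inflammatory genes, fell from 156 ± 4.98 to 32.0 ± 0.80 CPM (log2 fold change -2.29, adjusted p = 2.4e-14). NFE2L2, the oxidative stress factor that pairs with small MAF proteins, fell with a log2 fold change of -1.75. MAFG, a small MAF like MAFF, also fell (-1.14), and ATF7, a JUN partner, rose (0.62). Of the small MAF genes, MAFF and MAFG thus fell, while MAFK rose from 24.4 ± 1.68 to 30.7 ± 2.14 CPM (log2 fold change 0.33, adjusted p = 0.0025). MAFK was named after its values had been seen.

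Upstream of AP-1, MAP kinases phosphorylate JUN and FOS proteins and dual-specificity phosphatases switch the kinases off. Of 26 such genes 25 passed the filter, of which 8 rose, 13 fell and 4 were not called (MAPK3, MAPK8, MAP2K1 and MAP3K1), with a median of -0.16. The share called was 84% here and, with a replicate block, 16 of 25 genes. DUSP4, a phosphatase of ERK, fell from 75.1 ± 5.01 to 21.0 ± 1.52 CPM (log2 fold change -1.84, adjusted p = 4.9e-12), and DUSP1 fell as well (-1.07). Of the other phosphatase genes listed, DUSP6, DUSP8 and DUSP16 were called lower, while DUSP5 and DUSP10 were called higher. MAP3K8, a kinase upstream of ERK, fell (-1.69), and RPS6KA3, a kinase downstream of ERK, rose (1.42). MAPK8, which encodes the JUN kinase JNK1, was not called, while MAPK9, which encodes JNK2, fell (log2 fold change -0.22, adjusted p = 0.0076). MAPK9, DUSP5, DUSP6, DUSP8, DUSP10 and DUSP16 were named after their values had been seen.

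Of 22 other immediate early genes 20 passed the filter, of which 5 rose, 9 fell and 6 were not called (IER2, IER5, KLF4, MCL1, GADD45B and SRF), with a median of -0.13. The share called, 70%, was close to that of all genes tested. NR4A1 (-2.38), EGR1 (-2.09) and IER3 (-1.82) fell on the log2 scale, the last from 106 ± 7.39 to 30.2 ± 2.10 CPM. CYR61, a matricellular protein gene, rose from 310 ± 10.5 to 795 ± 23.3 CPM (log2 fold change 1.36, adjusted p = 2.1e-12). FOS and CYR61 therefore rose while EGR1, ATF3 and FOSB fell, so inducible genes did not move in 1 direction.

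Of 25 genes described in textbooks as AP-1 targets 18 passed the filter, of which 14 fell, 3 rose (PLAU, CD44 and GJA1) and 1 was not called (TIMP1), with a median of -1.92 and 94.4% called. MMP1, an interstitial collagenase, fell from 425 ± 7.87 to 8.65 ± 1.86 CPM (log2 fold change -5.62, adjusted p = 1.8e-16). MMP9 fell by 4.96 and IL8, a neutrophil chemokine, fell by 4.23 on the log2 scale. IL1B, which passed the filter through the NC group alone (127 ± 7.29 CPM), never exceeded 3 counts in a library with BNC2 siRNA and was at least 712-fold lower, taking 3 counts per library as the limit. FOSL1 mRNA was higher in the libraries in which most of these genes were lower, and 36.6% of all genes tested were called higher there. A link between FOSL1 and these genes was not tested. Whether AP-1 proteins occupied these genes was not measured in the RNA-seq data.

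ATF3 is also a textbook target of ATF4 in the integrated stress response, a shared answer to amino acid shortage and unfolded protein. All 8 genes of that list passed the filter, of which 6 fell, none rose and 2 were not called (TRIB3 and SESN2), with a median of -1.41. The share called, 75%, was close to that of all genes tested, and in 4 alternative fits 5 genes were called. The call lost there was that of ATF4 itself (log2 fold change -0.17, adjusted p = 0.021 and, in those fits, 0.053 to 0.11), which was named after its values had been seen. GDF15, a secreted stress cytokine, fell from 108 ± 6.15 to 0.98 ± 0.26 CPM (log2 fold change -6.76, adjusted p = 1.8e-16). CHAC1 (-1.70), ASNS (-1.57) and PPP1R15A (-1.53) fell as well. Of 8 heat shock genes 7 passed, of which 3 rose, 2 fell and 2 were not called (HSPA8 and HSPH1), with a median of -0.07 and 71.4% called, close to that of all genes tested. Scaled by total counts only, 3 rose and 4 fell. HSPA1A (0.71) and DNAJB1 (0.52) rose while BAG3 (-0.93) and HSPB1 (-0.53) fell. HSPA1A has a near-identical copy, HSPA1B, and its count is uncertain because reads that map to several places were not counted.

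**Figure D4:**
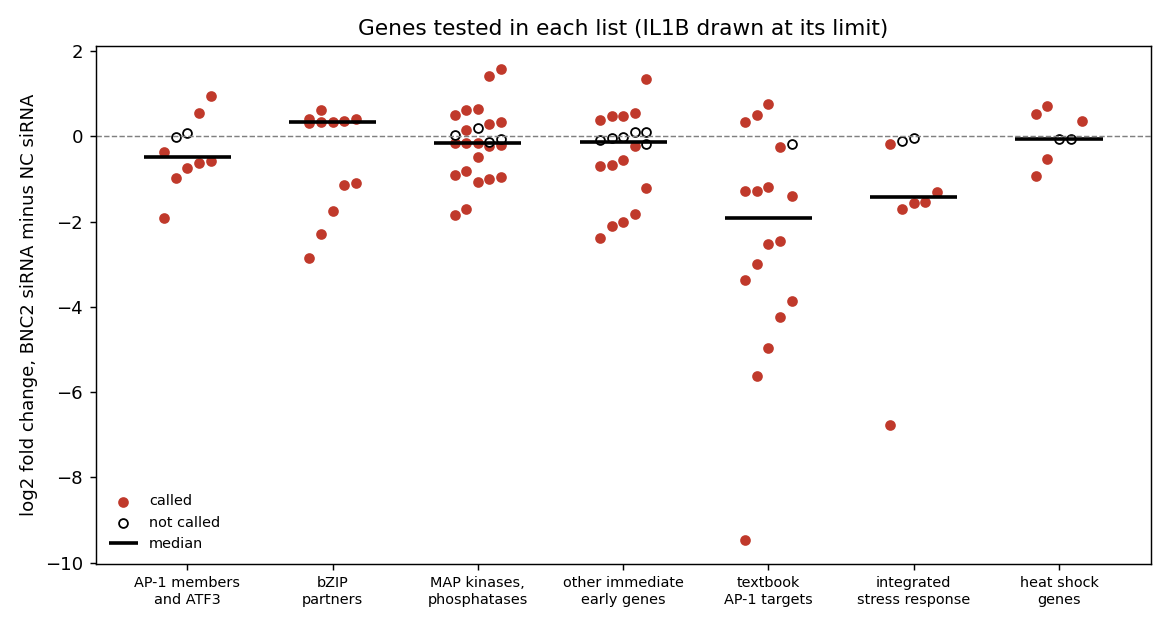
Log2 fold changes (BNC2 siRNA minus NC siRNA) of the genes tested in each list, with called genes filled, the others open and the list median as a bar, and IL1B drawn at its limit. The medians are -0.47 for the 10 genes, 0.33 for bZIP partners, -1.92 for textbook AP-1 targets and -1.41 for integrated stress response genes.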

How the data were processed

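Poly(A) RNA from 6 BT549 cultures was sequenced as single-end reads, which the authors aligned to hg19 with STAR 2.6.1d. The deposited values are raw read counts per gene, and the series table equals the reverse-strand column of each library table. Reads assigned to no gene (37.7% to 41.1% per library) were left out.

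With R 4.3.3, edgeR 4.0.16 (quasi-likelihood test, TMM factors of 0.972 to 1.04) was run on all 12186 genes above 1 CPM in at least 3 libraries, with Benjamini-Hochberg adjustment and calls at 0.05. A standard error is the log2 fold change divided by the square root of F. With library totals of 16093978 to 18246254 counts, 1 count was worth 0.056 to 0.064 CPM, and intervals cover these replicates only. An exact permutation of 3 against 3 cannot go below p = 0.1.

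Genes, lists and tests were chosen with earlier results of these data known. From each list the 4 called genes with the largest absolute log2 fold change and at least 5 CPM in the higher group are named, and genes not called by symbol. Marker lists are mesenchymal, epithelial, leukocyte and endothelial, and 1 leukocyte marker is not reported here. Positions and exon lengths come from GENCODE 44 on GRCh37. Scripts were tested on simulated data, in which the share of false calls lay slightly above the nominal level when few genes changed. Far more genes were called in these data, a setting that was not simulated. Alternatives were edgeR's likelihood ratio test, DESeq2 1.42.0, its size factors, total counts, no filter, filterByExpr, a replicate block, both strands, the longest transcript and leaving out each library.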

Additional observations from a re-analysis of the deposited data

How the results depend on the processing

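The 8 genes called among the 10 kept their direction and stayed called in all 14 alternative fits, and FOSL2 and JUN were called in none. Leaving out each library in turn gave log2 fold changes of -1.98 to -1.78 for ATF3, -0.86 to -0.61 for BATF3, 0.81 to 1.04 for FOS, -0.67 to -0.52 for FOSB, 0.52 to 0.58 for FOSL1, -0.73 to -0.55 for JUNB, -0.48 to -0.30 for JUND, -1.01 to -0.93 for MAFF and -0.73 to -0.56 for BNC2. The small values of FOSL2 changed sign between fits (-0.01 to 0.12 without a library), as did those of JUN under other settings (-0.10 to 0.01). With the longest transcript as length, JUN held 50.4% of the JUN family in NC and 59.1% in BNC2 siRNA libraries. Scaling by total counts only moved the median of all genes to -0.07, with 3950 genes called up and 4922 down. A replicate block called 8400 genes and the same number of the 10 genes (8, 2 up and 6 down). After the group mean log2 CPM of each gene was subtracted, the deviations of same-numbered libraries correlated at -0.21, -0.08 and -0.13. No NC library's deviations correlated best with those of the BNC2 siRNA library of its own number. The numbers were therefore not taken to pair the samples. In the MAP kinase and phosphatase list 16 of 25 were called under the replicate block (7 up, 9 down), 17 of 26 without a filter on low counts and 17 to 19 of 25 without a library, against 21 of 25. In the textbook AP-1 target list 16 to 18 were called without a library and 22 of 25 without a filter on low counts (3 up, 19 down), against 17 of 18. Low counts limit FOS, FOSB, ATF3 and BATF3 most.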

Other observations

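BNC2 siRNA replicate 1 held the highest value of its group in 7 of the 10 genes (FOS, FOSL1, JUN, JUNB, JUND, MAFF and BATF3), while it was highest in 35.7% of all genes tested. Without it, the log2 fold change of FOS was 0.81, that of JUNB -0.73 and that of JUND -0.48, and each was still called by edgeR (adjusted p = 0.0022, 4.8e-07 and 0.00025). In the NC group the highest value was in replicate 1 for 4 of the 10 genes, in replicate 2 for 4 and in replicate 3 for 2. Of all genes tested, these NC libraries were highest in 39.5%, 30.8% and 29.7%.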
